A study of Mus musculus with 6 samples.

Results

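The genes described here are Il7r, Themis and 8 further genes that T cells express: Cd3e, Cd3d, Cd3g, Cd4, Lck, Cd8a, Cd2 and Cd5. These 10 genes, of 24539 listed, were taken by name. Il7r and Themis were picked because their counts differed between Jmjd8-KO and wild-type fat, so their difference is given as a description with no p-value, and the same holds for the other 8. The question put to them was whether Il7r and Themis follow the genes of the T cell receptor complex.

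The tissue was epididymal white adipose tissue, the fat pad beside the epididymis of male mice, sequenced as bulk RNA. The groups compared were 3 C57BL/6 mice labelled Jmjd8-KO and 3 C57BL/6 mice labelled WT, and both groups were kept on HFD (high-fat diet). The sources used here do not give the knockout allele, the age of the mice or the length of the diet. Each library is 1 mouse, with 17598696 to 20598473 counts.

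T cells recognise antigen through a receptor whose variable chains signal through the CD3 chains. The kinase LCK, held at the membrane by the coreceptors CD4 and CD8, phosphorylates the CD3 chains and so starts the signal. THEMIS is an adaptor that joins this pathway while T cells are selected in the thymus, and the IL-7 receptor carries the survival signal that resting T cells and innate lymphoid cells depend on. Fat holds resident T cells and innate lymphoid cells, and T cells are known to accumulate in this depot in obese mice.

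Promoter windows are shown for both genes with the largest differences and for Cd3e, a chain of the receptor complex, so that the 3 can be compared. Each is 300 bases, read 5′ to 3′ on the strand of the gene, from 250 bases before to 50 after the RefSeq start (GRCm38.p6). Capitals mark matches, on either strand, to AGGAAG, the core bound by ETS factors, TGTGGT, the core bound by RUNX factors, and TGANTCA, the AP-1 site. These motifs were chosen after the sequences were seen, and they do not overlap each other in these windows.
Il7r, chr15:9529827-9530126, minus strand: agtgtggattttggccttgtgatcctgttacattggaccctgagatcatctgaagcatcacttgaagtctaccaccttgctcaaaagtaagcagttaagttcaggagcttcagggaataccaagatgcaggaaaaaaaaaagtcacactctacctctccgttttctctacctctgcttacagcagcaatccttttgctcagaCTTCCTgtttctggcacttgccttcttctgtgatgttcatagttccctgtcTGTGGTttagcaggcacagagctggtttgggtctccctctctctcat
Themis, chr10:28668110-28668409, plus strand: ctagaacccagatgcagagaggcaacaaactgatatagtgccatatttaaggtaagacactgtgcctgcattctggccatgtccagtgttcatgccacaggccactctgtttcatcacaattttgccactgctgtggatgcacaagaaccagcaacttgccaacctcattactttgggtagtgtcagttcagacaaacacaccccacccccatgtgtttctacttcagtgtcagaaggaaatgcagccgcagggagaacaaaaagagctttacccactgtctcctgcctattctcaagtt
Cd3e, chr9:45009562-45009861, minus strand: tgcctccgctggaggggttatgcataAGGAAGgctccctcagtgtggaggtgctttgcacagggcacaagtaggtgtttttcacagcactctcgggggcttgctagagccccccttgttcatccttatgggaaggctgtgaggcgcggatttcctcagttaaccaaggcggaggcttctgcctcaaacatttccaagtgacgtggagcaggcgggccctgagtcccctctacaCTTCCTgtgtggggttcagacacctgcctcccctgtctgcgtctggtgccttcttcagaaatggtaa

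The Il7r window holds 1 match to AGGAAG and 1 to TGTGGT, the Cd3e window 2 to AGGAAG, and the Themis window none to the 3 motifs. The shorter GGAA, which ETS sites share, also occurs unmarked in all 3 windows, that of Themis included. Themis has 2 windows, of which 1 is shown. Of 32851 promoter windows of the same length, 35.4% hold AGGAAG, 16.8% TGTGGT and 7.81% the AP-1 site. A match is a description of the letters in the window. Windows were found for 8 of the 10 genes.

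Jmjd8, the targeted gene, encodes a JmjC-domain protein and had 748, 1147 and 728 counts in the knockout replicates, in order, and 2277, 2284 and 2209 in WT (log2 fold change, hereafter log2 change, -1.28, edgeR adjusted p = 0.0193). A library in each group stood apart. WT replicate 1 carried RNA of neurons and glia, and where this RNA came from was not tested. The summed level of 8 neuron and glia markers was 1290 CPM (the count scaled to a library size corrected by TMM factors) there and 57.8 to 83.1 CPM in the other libraries. Slc17a7, a glutamate transporter of neurons, was at 126 CPM there and 0.580 to 1.05 CPM elsewhere. Mbp, a myelin protein, was at 339 CPM there and 50.9 to 71.1 CPM elsewhere, and Camk2a, a neuronal kinase, at 349 CPM and 2.97 to 7.76 CPM; 0 of 5 tested markers passed (4 had an unadjusted p under 0.05; 0 passed by DESeq2 or limma-voom). Jmjd8-KO replicate 2 differed from the other Jmjd8-KO mice over many genes at once. Adipocyte markers were high in every library, with Fabp4, a fatty acid carrier, at 6734 ± 261 CPM in WT, and Lep, the hormone leptin, at 5627 ± 294 CPM (SD, n = 3). Their summed level was higher in the knockout mice, at 18560 to 21827 CPM against 17406 to 18362 CPM. Lep went the other way and was lower there without overlap (log2 change -0.20, edgeR adjusted p = 0.216). Adipoq, Plin1 and Cidec, named after their values were seen, were higher there without overlap. Of the 6 markers 0 passed by edgeR. These 4 genes had an unadjusted p under 0.05, and 2 passed by DESeq2 and 4 by limma-voom. Such counts, here and below, stand beside those of all 14322 tested genes. Of these, 2735 had an unadjusted p under 0.05 by edgeR, 1039 passed by DESeq2 and 2030 by limma-voom.

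Il7r encodes the alpha chain of the IL-7 receptor, which pairs with the common gamma chain. It was at 28.3, 19.3 and 26.4 CPM in the knockout replicates, in order, and at 45.2, 47.4 and 55.1 CPM in the WT replicates. All Jmjd8-KO mice lay below all WT mice, and Jmjd8-KO replicate 2 was lowest. The means were 24.7 ± 4.76 and 49.2 ± 5.18 CPM (SD, n = 3 each), a log2 change of -1.0 (SE 0.157). The gene spans 9505788 to 9530176 of chromosome 15 (GRCm38, minus strand), and no other annotated gene overlaps it.

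Themis was low in WT fat and close to absent in Jmjd8-KO fat. It had 9, 4 and 8 counts in the knockout replicates, in order, and 72, 51 and 81 counts in the WT replicates. As CPM these were 0.474, 0.201 and 0.465 against 3.55, 2.59 and 4.08, so the groups were far apart. The log2 change was -3.15 (SE 0.361), an 8.9-fold lower level in Jmjd8-KO. The 95% Clopper-Pearson intervals of the Jmjd8-KO libraries reached at most 0.916 CPM, in replicate 3. Those of the WT libraries began at 1.92 CPM or above. Themis was picked on these same counts, so this gap is a description only. Such intervals cover counting error only.

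WT replicate 1, the library with neuron and glia RNA, held the middle Themis value and the lowest Il7r value of the WT mice. Neither gene was highest there. Themis spans 28668360 to 28883818 of chromosome 10 (plus strand), where a pair of annotated processed pseudogenes overlap it on the minus strand. The sources used here do not say whether counting used strand, so reads in those stretches cannot be assigned.

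**Figure D1:**
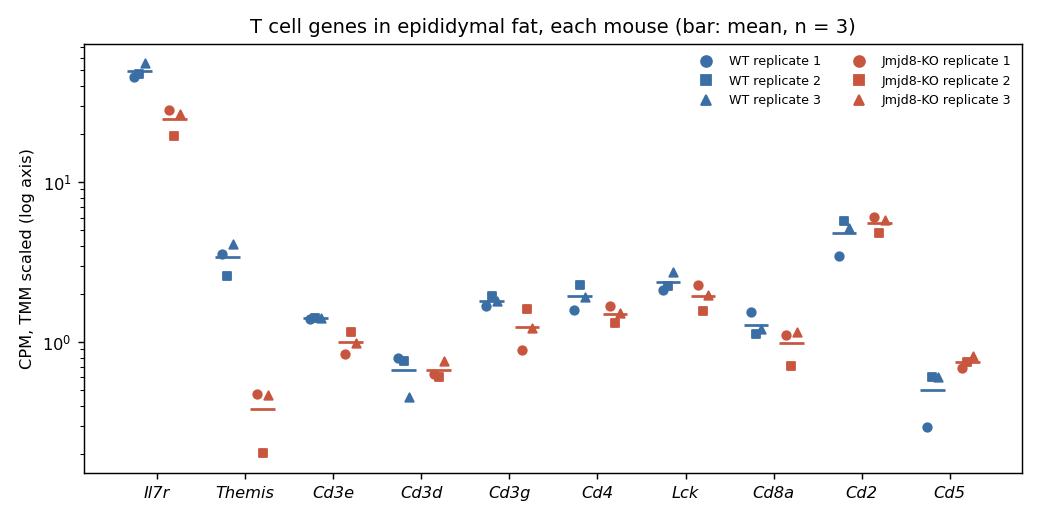
Level of the 10 T cell genes in each mouse, as TMM-scaled CPM on a log axis, with WT in blue and Jmjd8-KO in red; marker shapes give the replicate and bars the mean of 3 mice. Il7r and Themis are separated between groups, while for 5 of the other 8 genes the groups overlap.

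The CD3 chains, which carry the signal of the receptor, were at about 1 CPM. Cd3e was at 0.844, 1.16 and 0.988 CPM in the knockout replicates, in order, and at 1.38, 1.42 and 1.41 CPM in the WT replicates, so the groups did not overlap (log2 change -0.49, SE 0.225). Cd3g was at 0.896, 1.61 and 1.22 CPM against 1.68, 1.93 and 1.81 CPM, again without overlap but with Jmjd8-KO replicate 2 close to the WT mice (log2 change -0.54, SE 0.264). Cd3d was at 0.633, 0.604 and 0.755 CPM against 0.790, 0.761 and 0.453 CPM, and there the groups overlapped (log2 change -0.01, SE 0.314). The 3 genes are neighbours on chromosome 9, with Cd3g at 44969572 to 44980431, Cd3d at 44981786 to 44987339 and Cd3e at 44998740 to 45009627, where an antisense gene model and 1 on the same strand overlap Cd3e. The CD3 values rest on 9 to 38 counts per chain and library. For Cd3e the counting interval of Jmjd8-KO replicate 1 ran from 0.482 to 1.37 CPM. That of WT replicate 1 ran from 0.914 to 1.99 CPM, so the intervals overlapped. Overlap of intervals is not a test, and the difference between these single libraries was not tested.

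The coreceptors and the kinase overlapped between the groups. Cd4, the coreceptor for MHC class II, was at 1.69, 1.31 and 1.51 CPM in the knockout mice and 1.58, 2.28 and 1.92 CPM in the WT mice (log2 change -0.36, SE 0.233). Cd8a, the alpha chain of the coreceptor for MHC class I, was at 1.11, 0.704 and 1.16 CPM against 1.53, 1.12 and 1.21 CPM (-0.38, SE 0.283). Both had a lower mean in Jmjd8-KO, with values that overlapped those of WT. Lck was at 2.27, 1.56 and 1.98 CPM against 2.12, 2.23 and 2.72 CPM (log2 change -0.29, SE 0.226), and a microRNA gene lies within it.

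Cd2 and Cd5, both surface proteins, had higher means in Jmjd8-KO. Cd2, an adhesion receptor that T cells share with NK cells and B cells, was at 6.01, 4.83 and 5.75 CPM in the knockout mice and 3.46, 5.73 and 5.14 CPM in the WT mice (log2 change 0.21, SE 0.223). Cd5, an inhibitory receptor of T cells and some B cells, was at 0.685, 0.754 and 0.814 CPM against 0.296, 0.608 and 0.605 CPM (log2 change 0.57, SE 0.345). The Cd5 groups did not overlap, but WT replicate 1 had only 6 counts, and without it the log2 change was 0.29.

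All 10 genes were in the fit across all genes, in which 2 of them, Il7r and Themis, lay below the threshold as lower at an edgeR adjusted p under 0.05, where 1.33% of the 14322 tested genes passed as lower, 0.789% as higher and 2.12% in either direction. Themis passed the filter on low counts through its WT libraries. The groups did not overlap in 4 of the 10 genes that were lower and in 1 that was higher, against 15.5% and 14% of all tested genes. Since the genes were picked on this contrast, nothing is read from these counts. The median log2 change of the 8 genes other than Il7r and Themis was -0.32, and that of all tested genes was -0.01. In bulk tissue fewer cells of a type and less RNA per cell cannot be told apart.

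Set against the CD3 chains of the same library, Themis was lower in Jmjd8-KO in every comparison of mice, and Il7r was not. Both genes were picked for their difference, so these ratios are descriptions and not tests. The summed count of Cd3e, Cd3d and Cd3g was 45, 67 and 51 in the knockout replicates, in order, and 78, 81 and 73 in the WT replicates. The sum was 2.90 ± 0.501 CPM in the knockout mice and 3.88 ± 0.216 CPM in the WT mice, 1.34-fold lower in the knockout mice.

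Themis counts per CD3 count were 0.200, 0.0597 and 0.157 in the knockout mice and 0.923, 0.630 and 1.11 in the WT mice. On the log2 scale the ratio was -3.02 ± 0.923 against -0.21 ± 0.417, a difference of -2.81, and the ratios of the groups lay far apart.

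Il7r counts per CD3 count were 11.9, 5.72 and 8.92 in the knockout mice and 11.7, 11.5 and 15.0 in the WT mice. Here Jmjd8-KO replicate 1 lay above WT replicates 1 and 2, and the groups overlapped. This overlap rests on Jmjd8-KO replicate 1 alone, which had the lowest summed CD3 count, 45. The log2 ratio was 3.08 ± 0.534 against 3.66 ± 0.210, a difference of -0.58, and without Jmjd8-KO replicate 2 the difference was -0.30. Other denominators separated the groups. Over the summed counts of the 8 other genes the log2 ratio of Il7r was 0.62 to 1.0 in Jmjd8-KO and 1.56 to 1.85 in WT. Cd2 had the most counts of these 8 genes in every library, and its mean CPM was higher in Jmjd8-KO. Its counts were 114, 96 and 99 in the knockout mice and 70, 113 and 102 in the WT mice. A ratio without Cd2 was not computed. Over Ptprc, the CD45 protein of all leukocytes, the log2 ratio of Il7r was -2.08 to -1.90 against -1.46 to -1.21.

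**Figure D2:**
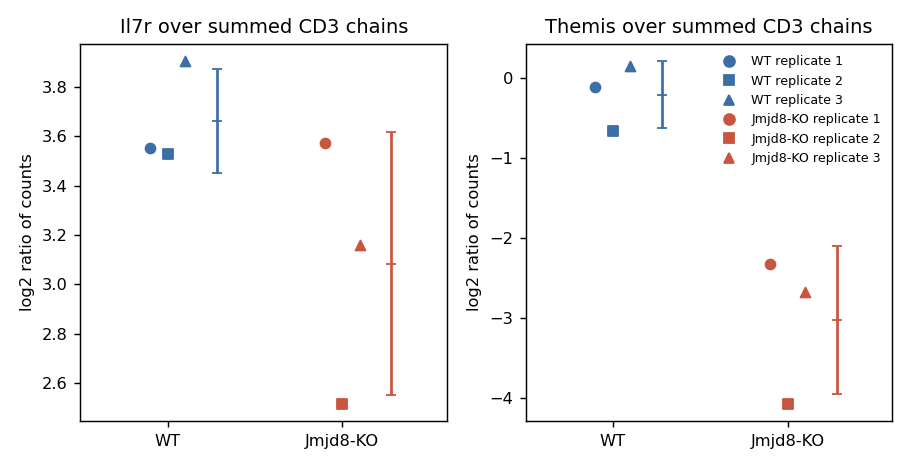
Log2 ratio of the Il7r count (left) and the Themis count (right) to the summed count of Cd3e, Cd3d and Cd3g in each mouse, with the mean and SD of 3 mice beside the points. The Themis ratios lie between -4.07 and -2.32 in Jmjd8-KO and between -0.67 and 0.15 in WT, while the Il7r ratios overlap.

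Levels can be compared between genes on the deposited RPKM scale, which divides by gene length. In WT fat Il7r was highest, at 14.5 ± 1.52 RPKM, against 3.94 ± 0.930 for Cd2, 1.67 ± 0.0932 for Cd3g and 0.925 ± 0.00486 for Cd3e. The mean level of Il7r was thus 15.7 times that of Cd3e in WT and 11.1 times in Jmjd8-KO. Cd4, Themis, Cd3d and Cd8a followed at 0.587, 0.533, 0.475 and 0.389 RPKM, each overlapping its neighbour in this order, and Cd5 was lowest at 0.229 RPKM. Lck, at 0.971 RPKM, overlapped Cd3e. The WT values did not overlap between Il7r and Cd2, Cd2 and Cd3g, Cd3g and Lck, Cd3e and Cd4, or Cd8a and Cd5.

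In Jmjd8-KO fat Themis went from the seventh place of the order to the last, at 0.0568 ± 0.0233 RPKM, below every value of Cd8a and Cd5. Il7r stayed first at 6.95 ± 1.36 RPKM, and Cd2 second at 4.37 ± 0.505 RPKM. The ratio of Il7r to Cd2 was 3.68 in WT and 1.59 in Jmjd8-KO.

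**Figure D3:**
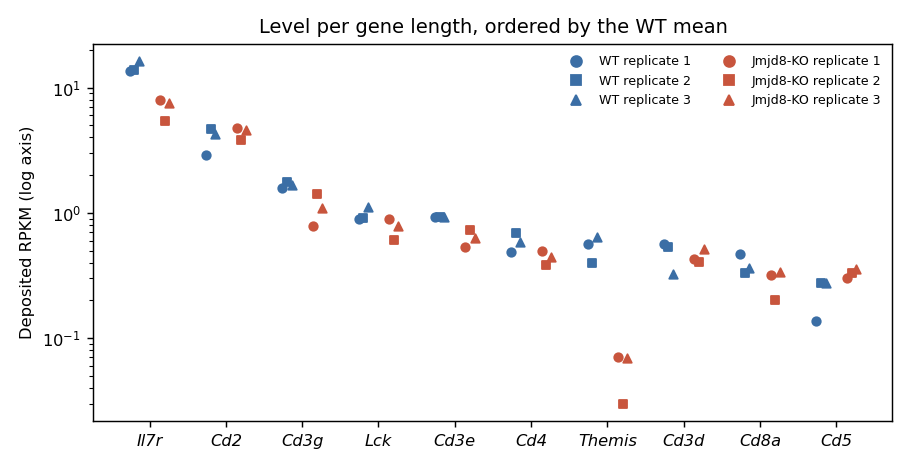
Deposited RPKM (reads per kilobase, scaled to library size) of the 10 genes in each mouse on a log axis, ordered by the WT mean. Il7r is highest in both groups, and Themis is the gene whose place in the order changes most, from 0.533 RPKM in WT to 0.0568 RPKM in Jmjd8-KO.

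The rest of the receptor's signalling chain was described by a list of 21 genes, of which 12 were tested. Of these 1 fell and 0 rose, while 11 were not called (median log2 change -0.29, against -0.01 over all tested genes). Cd247, the zeta chain of the receptor complex, was at 9.44, 6.99 and 7.32 CPM in the knockout mice and 8.44, 9.79 and 8.36 CPM in the WT mice (-0.16, SE 0.159, adjusted p = 0.599), and these groups overlapped. The kinase Zap70, which binds the phosphorylated CD3 chains, had a log2 change of -0.39 (SE 0.298, adjusted p = 0.507). Lat, the membrane scaffold that ZAP-70 phosphorylates, had -0.41 (SE 0.318, adjusted p = 0.507). Prkcq, a protein kinase C of T cells named after its values were seen, was at 2.00, 1.21 and 1.80 CPM in the knockout mice and 4.79, 2.94 and 2.82 CPM in the WT mice, without overlap (-1.07, SE 0.303, adjusted p = 0.127). Its log2 change was thus as low as that of Il7r. The highest Prkcq value was in WT replicate 1, the library with neuron and glia RNA. Genes of the receptor's constant regions were not analysed here. The summed level of the list was 93.4 to 110.8 CPM in the knockout mice and 129.1 to 137.6 CPM in the WT mice, without overlap. The list includes genes that macrophages and other cells also express, among them Lcp2 and Fyn, which made up most of this sum. Lcp2 was at 13.2 to 31.1 CPM in the knockout mice and 33.8 to 36.6 CPM in the WT mice. Fyn was at 44.3 to 48.2 CPM against 49.3 to 59.6 CPM.

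Partners of THEMIS did not pass by edgeR. Of 7 listed genes 6 were tested and 0 passed by edgeR (median log2 change -0.22). At an unadjusted p under 0.05 there were 3, Ptpn6, Plcg1 and Vav1, and these 3 passed by DESeq2 and by limma-voom. Themis2, the relative of Themis in B cells and macrophages, was at 32.6, 33.8 and 40.8 CPM in the knockout mice and 37.4, 35.6 and 40.6 CPM in the WT mice (log2 change -0.08, SE 0.110, adjusted p = 0.695), so the groups overlapped. Grb2, the adaptor that THEMIS binds, had -0.36 (SE 0.179, adjusted p = 0.322), and Ptpn6, the phosphatase SHP-1 that THEMIS is reported to regulate, -0.40 (SE 0.0956, adjusted p = 0.0889). The related phosphatase Ptpn11 had 0.16 (adjusted p = 0.316) and the phospholipase Plcg1 0.45 (adjusted p = 0.0704). Themis3, a further relative, had 0 counts in all libraries.

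Along the IL-7 receptor pathway the ligand, the partner chain and the kinases did not pass. Of 15 genes, all tested, 1 fell and 0 rose, while 14 were not called (median log2 change 0.03). Il7, the cytokine itself, was at 4.90, 3.97 and 5.40 CPM in the knockout mice and 5.33, 5.32 and 5.69 CPM in the WT mice (log2 change -0.20, SE 0.169, adjusted p = 0.548). Il2rg, the common gamma chain that completes the receptor, was at 27.3, 20.2 and 25.9 CPM against 26.9, 29.7 and 28.1 CPM (-0.21, SE 0.129, adjusted p = 0.415). Both genes overlapped between the groups, unlike Il7r.

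The kinases bound to these chains, Jak1 and Jak3, had log2 changes of 0.09 (adjusted p = 0.545) and 0.03 (adjusted p = 0.915). Their targets, the transcription factors Stat5a and Stat5b, had -0.01 (adjusted p = 0.976) and -0.08 (adjusted p = 0.559). Socs3, a feedback inhibitor that many cytokines induce, fell from 15.8 ± 0.310 to 10.04 ± 0.497 CPM (-0.65, SE 0.0971, adjusted p = 0.0311). Among 6 receptor genes of the other cytokines that use the common gamma chain, 5 were tested and 0 passed by edgeR, DESeq2 or limma-voom, with 0 at an unadjusted p under 0.05 (median -0.10). The most abundant were Il4ra, the IL-4 receptor (-0.02, adjusted p = 0.897), and Il15ra, the IL-15 receptor (-0.10, adjusted p = 0.76).

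**Figure D4:**
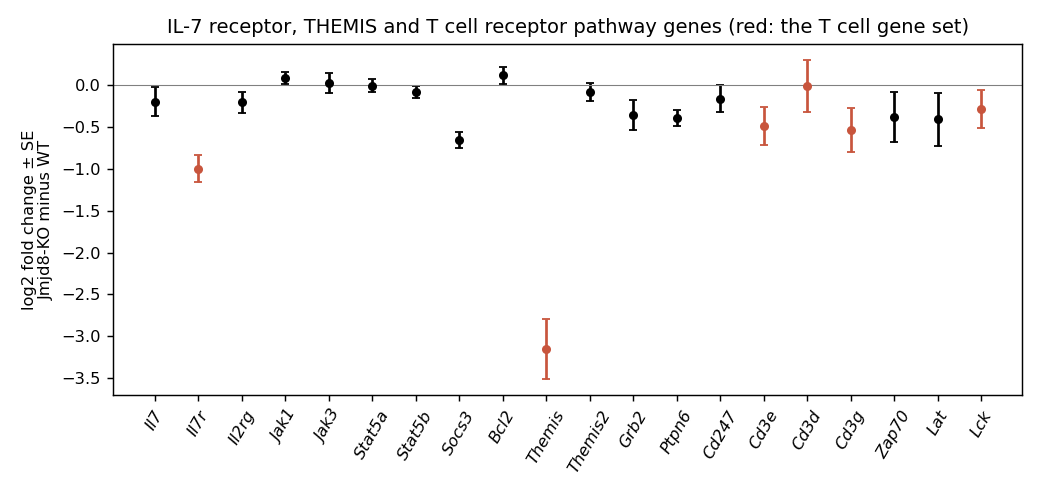
Log2 fold change (Jmjd8-KO minus WT) with its SE for genes of the IL-7 receptor pathway, of THEMIS and its partners, and of the T cell receptor complex; red points are among the 10 T cell genes. Il7r at -1.0 and Themis at -3.15 lie below the other genes drawn, which lie between -0.65 and 0.12; not every gene of the lists is drawn, and those left out range from -1.07 (Prkcq) to 0.45 (Plcg1).

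Other genes of the T lineage were examined as a list of 20, of which 18 were tested and 0 passed by edgeR (median log2 change -0.09). At an unadjusted p under 0.05 there were 3, and 0 passed by DESeq2 and 1 by limma-voom, Ms4a4b, named after its values were seen. Cd8b1, the beta chain of CD8, was at 0.474, 1.01 and 1.05 CPM in the knockout mice and 0.346, 0.406 and 0.756 CPM in the WT mice (log2 change 0.74, SE 0.443, adjusted p = 0.402). Its mean was higher in Jmjd8-KO, where that of Cd8a was lower, and both overlapped between groups. Tcf7, a transcription factor of resting T cells, had -0.13 (adjusted p = 0.826). The most abundant members, S1pr1 and Klf2, which endothelial cells also express, had -0.05 (adjusted p = 0.829) and 0.34 (adjusted p = 0.473). Foxp3, the factor of regulatory T cells, named after its values were seen, had -0.03 (adjusted p = 0.924). Bcl11b, likewise named after its values were seen, is a factor of T cells and of neurons. It was at 15.7 CPM in WT replicate 1 and at 0.814 to 1.17 CPM in the other libraries. Its log2 change of -2.52 (adjusted p = 0.272) includes that library, which carried neuron and glia RNA.

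Innate lymphoid cells of type 2 also depend on the IL-7 receptor. Of 10 of their markers 6 were tested and 0 passed by edgeR, DESeq2 or limma-voom, with 0 at an unadjusted p under 0.05 (median log2 change -0.01). The summed level of the list was 74.7 to 89.7 CPM in the knockout mice and 81.4 to 88.0 CPM in the WT mice, which overlap. Rora, a transcription factor of these cells that other cells of fat also express, made up most of this sum, at 46.2 to 58.9 CPM. It had a log2 change of -0.01 (adjusted p = 0.952). Il1rl1, the IL-33 receptor, had -0.01 (adjusted p = 0.984). The cytokines that define the type, Il5 and Il13, were at or below 0.151 and 0.355 CPM in every library. Areg, also too low to be tested and named after its values were seen, was lower in Jmjd8-KO without overlap. It had 2, 5 and 5 counts in the knockout mice and 16, 9 and 20 in the WT mice. The other untested markers, Il5, Il13 and Klrg1, overlapped between the groups.

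Of the leukocyte lists, the pan-leukocyte genes and the markers of macrophages and dendritic cells had lower summed levels in every knockout mouse than in any WT mouse, while the sums for type 2 innate lymphoid cells, NK cells and B cells overlapped. The summed level of 6 pan-leukocyte genes was 476 to 677 CPM in the knockout mice and 778 to 842 CPM in the WT mice. Of the 6, 0 passed by edgeR, 5 had an unadjusted p under 0.05, and 2 passed by DESeq2 and 5 by limma-voom. All 6 had a negative log2 change (median -0.47). Laptm5, a lysosomal protein of leukocytes, had -0.39 (adjusted p = 0.246) and Ptprc -0.40 (adjusted p = 0.112). The summed level of 10 macrophage and dendritic cell markers was 788 to 1099 CPM against 1307 to 1407 CPM, lowest in Jmjd8-KO replicate 2. Of these 2 fell and 0 rose, while 8 were not called (median -0.15): Itgax, the integrin CD11c (-0.90, SE 0.116, adjusted p = 0.0236), and Adgre1, the macrophage protein F4/80 (-0.63, SE 0.103, adjusted p = 0.0381). Cd68, a lysosomal protein of macrophages named after its values were seen, was at 242, 86.5 and 273 CPM in the knockout mice and 419, 388 and 422 CPM in the WT mice (-1.03, adjusted p = 0.204). Csf1r, the macrophage growth factor receptor, likewise named, had -0.02 (adjusted p = 0.875). No marker of either list was at 0. Their part in the difference of Il7r and Themis was not tested. The log2 ratio to Ptprc lay below the WT range in every knockout mouse for Il7r, as given above, and for Themis (-8.66 to -7.73 against -5.60 to -4.97). This too is a description, since both genes were picked for their difference.

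**Figure D5:**
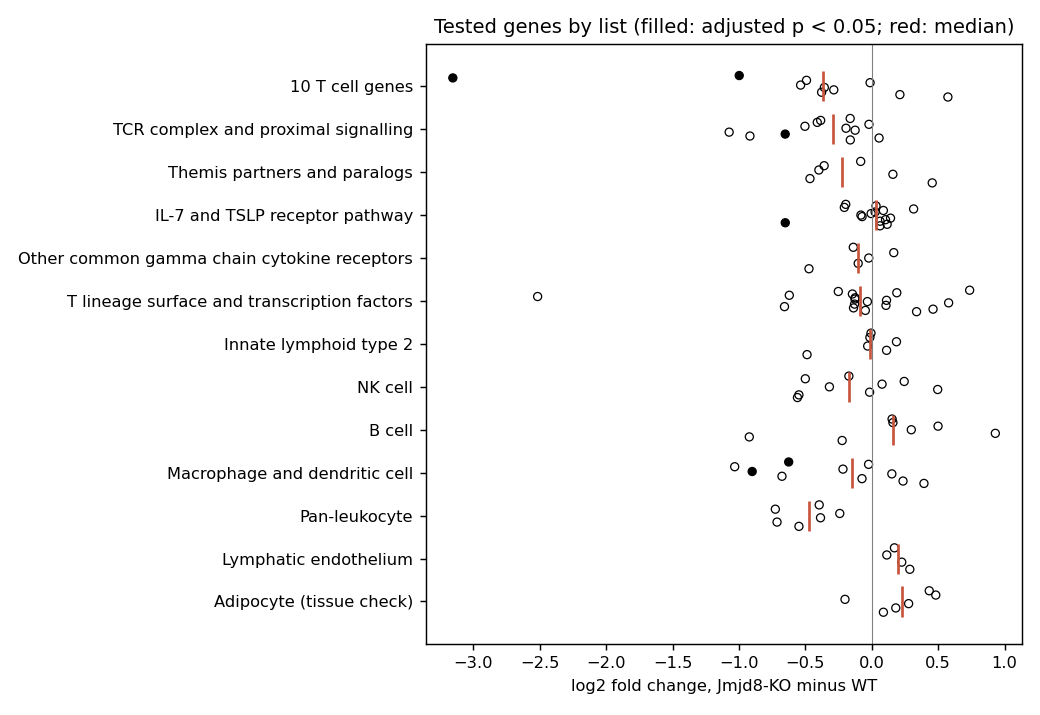
Log2 fold change (Jmjd8-KO minus WT) of every tested gene by list; filled points passed at an adjusted p under 0.05 and red lines are list medians. Themis at -3.15 lies to the left of all other genes shown; the neuron and glia list, which WT replicate 1 dominates, is not drawn.

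The calls of Socs3, Itgax and Adgre1 were lost in some alternatives. Each passed without Jmjd8-KO replicate 2 (edgeR adjusted p from 0.00731 to 0.0111). None passed when Jmjd8-KO replicate 1 or 3, or WT replicate 1, 2 or 3, was left out (adjusted p from 0.0638 to 0.186). In those fits 0 to 17 of all tested genes passed, against 304 with all mice, so the loss was not particular to these genes. Each also failed with the replicate number as a block (edgeR adjusted p from 0.0615 to 0.119), and Adgre1 with no filter on low counts (0.0548). The log2 changes of Socs3, Itgax and Adgre1 stayed negative in all 14 alternatives. Over all lists 16 genes passed without Jmjd8-KO replicate 2 and 0 without any other single mouse, with 19 to 23 at an unadjusted p under 0.05 in those fits. Of all genes that passed, 191 of 304 were lower, and 288 of 372 when libraries were scaled by size alone.

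Genes whose pattern over the 6 libraries was most like that of Il7r, by the root mean square difference of centred log2 CPM, were Mcoln2 (0.0768), Cdca3 (0.102) and Mstn (0.105). Mcoln2, a lysosomal ion channel of immune cells, was at 3.15 ± 0.641 CPM in the knockout mice and 6.09 ± 0.599 CPM in the WT mice. Cdca3, a gene of cell division, was at 4.57 ± 0.805 against 9.31 ± 0.968 CPM, and Mstn, the growth inhibitor myostatin, at 3.36 ± 0.923 against 6.47 ± 0.768 CPM.

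No gene came so close to Themis. The nearest were Fat3, an atypical cadherin (0.394), Pcp4l1 (0.422) and Ereg, the growth factor epiregulin (0.471). Fat3 was at 9.33 CPM in WT replicate 1 and 5.53 and 5.74 CPM in WT replicates 2 and 3. Pcp4l1 was at 10.2 CPM in WT replicate 1 and 4.87 and 5.39 CPM in WT replicates 2 and 3. Themis, in contrast, was not highest in WT replicate 1, the library with neuron and glia RNA. Nearest to Cd3e were Capg, an actin-capping protein of macrophages (0.0526), Zswim4 (0.0620) and Vav1, a signalling protein of blood cells (0.0621).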

How the data were processed

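The authors deposited 1 table of 24539 genes with, for each of 6 mice, a raw count and an RPKM value. Per the submitters' processing notes STAR, featureCounts and mm10 were used; the sources used here do not give versions, annotation, strand setting or the handling of reads with several matches. The deposited counts are whole numbers and unnormalized per the file headers. The RPKM values deposited by the authors, scaled for gene length and library size, were used for levels between genes and for 1 alternative ratio, and were not tested.

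Genes were kept by filterByExpr (minimum count 10; 14322 genes), scaled by TMM and tested with edgeR 4.0.16 in R 4.3.3 (glmQLFit, glmQLFTest) with genotype as the only term. Benjamini-Hochberg adjustment ran over all tested genes, with a threshold of 0.05. CPM values are counts over TMM-scaled library size. Differences (log2 change) are knockout minus WT, and the SE is that difference divided by the root of F. Profiles used log2 CPM with a prior count of 2, leaving out names of gene models.

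The genes and the 13 lists of related genes (128 of 132 listed) were chosen with earlier results of these data known. Named genes are the 10 T cell genes, 15 partner genes (Trac among them was not analysed here), and from each list those that passed, or otherwise the 2 most abundant. Some results that this rule names are not reported here. The series' design text counts 3 mice in each group, 1 a library, and the p-values measure the spread between 3 mice a group. The 6 pairs of libraries within a group differed by a chi-square of 3.07 to 48.3 per degree of freedom over genes, so none was counted as a repeat. Gene positions are from GENCODE M21 on GRCm38, the assembly of mm10, and promoter windows from RefSeq.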

Additional observations from a re-analysis of the deposited data

How the results depend on the processing

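The number of genes that passed was 304 and, among the list genes, 4. It was 287 and 3 with RLE size factors, 372 and 5 with library size alone, and 329 and 4 with the stricter filter (1 CPM in 3 samples). It was 156 and 2 with no filter, 1039 and 12 with DESeq2 1.42.0, 2030 and 21 with limma-voom 3.58.1 and quality weights, and 2833 and 30 with WT replicate 1 and Jmjd8-KO replicate 2 both left out. Leaving out 1 mouse gave 0 to 1351 genes and 0 to 16 list genes, highest without Jmjd8-KO replicate 2 and lowest without WT replicate 3, a fit by edgeR in which 2119 had an unadjusted p under 0.05. The cause was not tested. With the replicate number as a block 5 genes and 0 list genes passed by edgeR (2245 and 22 at an unadjusted p under 0.05). Deviations of mice with the same number had correlations of -0.02, -0.03 and 0.02. With 3 mice a group these cannot show whether the numbers pair mice, and the labels do not say so. The log2 fold change of Il7r lay between -1.11 and -0.85 over 14 alternatives, and that of Themis between -3.35 and -2.80. Cd3d took either sign (-0.22 to 0.19), and the other 7 genes kept theirs; Cd3d and Cd5 did not reach the stricter filter. The difference in the log2 ratio to CD3 lay between -0.83 and -0.30 for Il7r and between -3.16 and -2.29 for Themis when 1 mouse was left out. It was -0.56 and -2.79 from RPKM, and -0.35 and -2.24 with both mice left out. Genes near 1 CPM are limited by counting error.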

Other observations

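No marker of NK cells, B cells or lymphatic vessels passed by edgeR. Of 10 NK cell markers 9 were tested and 0 passed by edgeR, DESeq2 or limma-voom, with 1 at an unadjusted p under 0.05 (median log2 fold change -0.17), and the summed level was 9.71 to 12.4 CPM in Jmjd8-KO and 12.3 to 13.1 CPM in WT. The most abundant were Klrk1, the receptor NKG2D, with -0.56 (edgeR adjusted p = 0.239), and Nkg7, a protein of cytotoxic granules, with -0.02 (adjusted p = 0.977). Of 8 B cell markers 7 were tested and 0 passed by edgeR, with 2 at an unadjusted p under 0.05, 1 passing by DESeq2 and 2 by limma-voom (median 0.16). They had a summed level of 12.7 to 19.1 CPM against 16.2 to 19.8 CPM. Cd22, an inhibitory lectin, had -0.92 (adjusted p = 0.13) and Cd79b, a chain of the B cell receptor, 0.16 (adjusted p = 0.628). Blk, named after its values were seen, was higher in Jmjd8-KO without overlap (0.93, adjusted p = 0.1). The 2 B cell markers at an unadjusted p under 0.05, Cd22 and Blk, thus differed in opposite directions. Both passed by limma-voom, and Cd22 by DESeq2. Of 5 markers of lymphatic endothelium, whose vessels are a source of IL-7, 4 were tested and 0 passed by edgeR, DESeq2 or limma-voom, with 0 at an unadjusted p under 0.05 (median 0.20). Pdpn, podoplanin, had 0.11 (adjusted p = 0.607) and Lyve1, a hyaluronan receptor that some macrophages share, 0.17 (adjusted p = 0.689). Over the 128 list genes in the table, 28 of 109 tested genes had an unadjusted p under 0.05 by edgeR, against 2735 of all 14322 tested genes. The lists were chosen with earlier results of these data known, so nothing is read from this count.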
